A study of Mus musculus with 4 samples.

Results

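The effector cytokine genes followed in CD4+CD25+ cells were Ifng, Il2, Il3, Il4, Il5, Il13, Il17a, Il21, Csf2 and Areg. They were listed by gene name, and all 10 were among the 16383 genes of the table. The cells had been sorted from the spleens of mice aged 7 weeks, and CD4+CD25+ is the surface phenotype by which regulatory T cells (Tregs) are commonly isolated. The groups compared were wild type (WT, genotype label WT, 2 libraries) and Ikzf2-/- (genotype label Helios KO, 2 libraries). Ikzf2 encodes Helios, a transcription factor of the Ikaros family that is carried by most Tregs that arise in the thymus. The exons removed in the null allele, the sex and strain of the mice, and whether the libraries came from separate mice are not stated in the labels. The p-values below therefore measure only the spread between these samples, some of which may be technical.

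Effector cytokines are the secreted proteins by which helper T cells direct other immune cells. Their genes are silent in resting cells and are switched on after engagement of the T cell receptor by factors such as NFAT and AP-1, and their messages are short-lived. In Tregs most of them are held low by the lineage factor Foxp3, and because these cells make little interleukin 2 of their own they take it up from their surroundings through the receptor chain CD25. Amphiregulin, encoded by Areg, is an exception with a described role in Tregs, where it acts in tissue repair.

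Values are the deposited normalised reads per kb of transcript (median length over a gene's transcripts). Reads behind each value could be recovered, because low values are whole multiples of the worth of 1 read, and the libraries held 42157138 to 52543073 recovered reads. Those reads carry no molecular identifiers, so the 95% exact Poisson intervals given below cover counting error only. Foxp3 (25224 to 41264 over the 4 libraries), Cd4 (36704 to 43526) and Il2ra (26759 to 40457), which encodes CD25, were high in each library. Each was lowest in Helios KO replicate 2, where Foxp3 was at 25224 against 33448 to 41264 in the others. Ikzf2, as the table gives it for the gene, had values of 5282 and 7864 in WT against 4396 and 3104 in the knockout (adjusted p of 1.00 in limma), which checks the genotype only weakly. Helios KO replicate 2 stood apart from the other libraries by transcripts of other blood cells. Fold changes of Ifng, Il4, Il21 and Areg are therefore given with and without it. Fold change medians of gene lists and comparisons of profiles include it.

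The cytokine genes were expressed far below the Treg genes. In WT, Ifng, which encodes the type 1 cytokine interferon gamma, had the highest level (109 ± 13.9, SD, n = 2), which was 0.308% of the WT level of Foxp3. Areg followed at 47.9 ± 4.21, then Il21 at 37.7 ± 31.7, Il2 at 36.5 ± 5.10 and Il4 at 31.5 ± 13.97 (SD, n = 2 each). Csf2 came next at 14.1 ± 3.36. Il5 (0.918), Il3 (0.744) and Il13 (0.388) rested on 1 to 3 reads in a single WT library each, and Il17a had no read in WT. In this order Ifng lay above Areg in both WT libraries, Il4 above Csf2 and Csf2 above Il5, whereas the neighbours from Areg down to Il4 overlapped and so did those from Il5 to Il13.

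**Figure D1:**
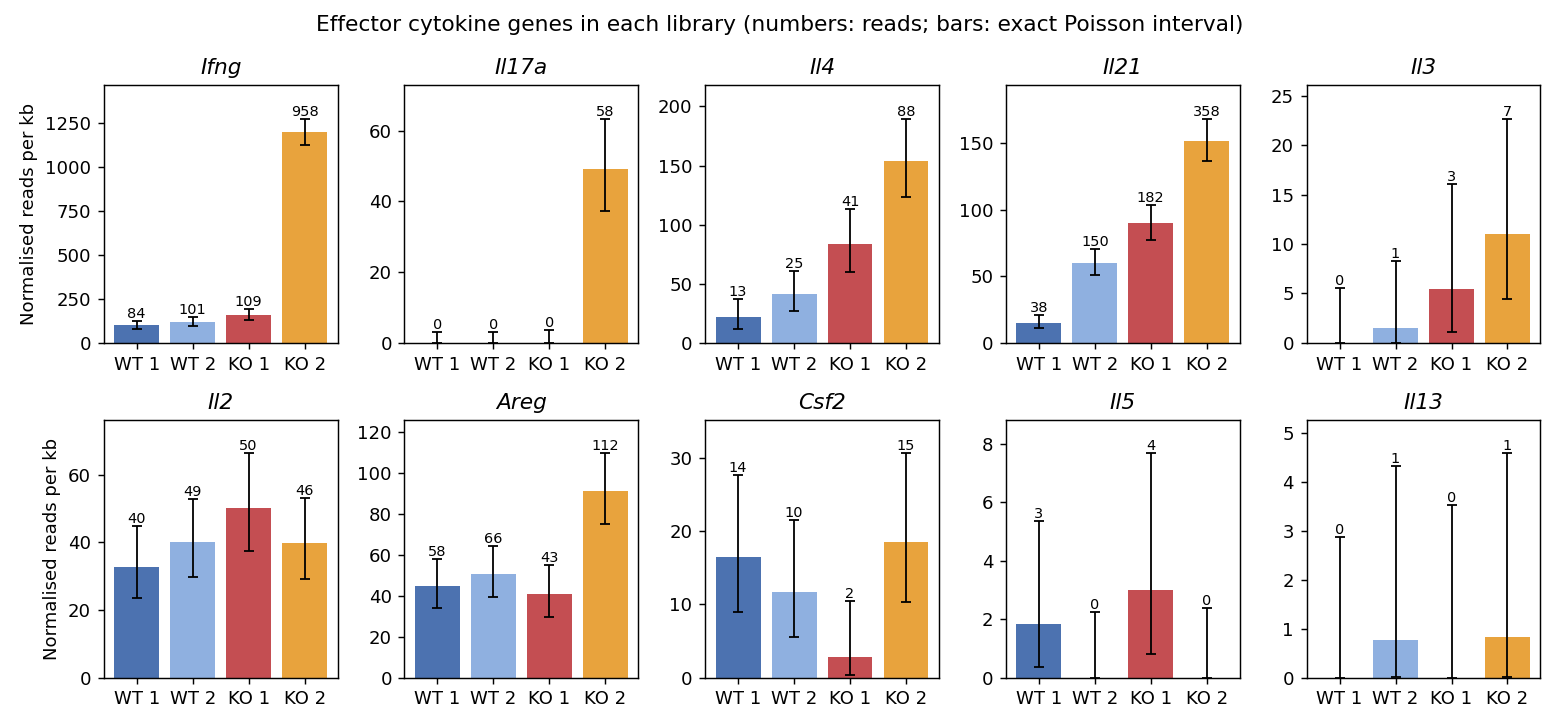
Normalised reads per kb of transcript (vertical axes, each starting at 0 and with its own scale) of the 10 cytokine genes in the WT (blue) and Helios KO (red and orange) libraries. Numbers are reads and error bars are 95% exact Poisson intervals of counting error; Ifng and Il17a stand out in Helios KO replicate 2, and Il4, Il21 and Il3 were higher in both knockout libraries than in both WT libraries.

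In 4 of the 10 genes, Ifng, Il4, Il21 and Il3, both Helios KO libraries lay above both WT libraries, and in 0 genes both lay below. Over all genes of the table, 12.8% had both knockout libraries above and 13.6% had both below. Counting Helios KO replicate 1 alone, 6 of the 10 genes lay above both WT libraries (26.7% of all genes). Counting Helios KO replicate 2 alone, 8 of the 10 did (39.4% of all genes), and 8 were highest in that library (34.5% of all genes). Those 8 include Il13, with 1 read in WT replicate 2 and 1 in Helios KO replicate 2, and Csf2, with 14 reads in WT replicate 1 and 15 in Helios KO replicate 2, which differ by less than counting error. Of the 10 genes, 6 reached a value of 10 in 2 or more libraries and were tested, and 0 of these passed the threshold of an adjusted p under 0.05 in limma over 11571 genes, where the share called over all genes was also 0%. At an unadjusted p under 0.05 there were 2 members, Il4 (p of 0.0121 in limma) and Il21 (0.0483), and 386 of all genes (3.34%), and limma-voom on recovered reads called 0 genes with 382 at that unadjusted p. Il21 missed that level under both other scalings (0.0520 and 0.0541 in limma), with a value of at least 10 asked of all 4 libraries (0.0517) and without Helios KO replicate 2 (0.0775), and without WT replicate 1 neither gene reached it. An exact permutation test of 2 against 2 libraries cannot give a p below 1 in 3 (two-sided), so single genes were not tested that way. With Helios KO replicate 1 left out, 2 of the 6 tested members were called (Ifng and Il4), against 6.40% of all genes, and with Helios KO replicate 2 left out 0 were, against 0.277%.

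**Figure D2:**
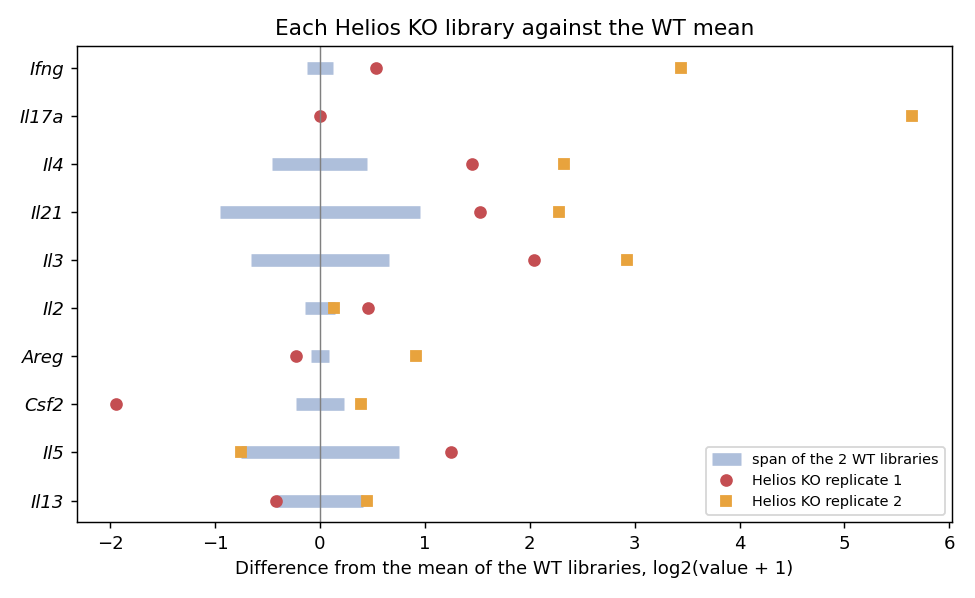
Difference of each Helios KO library from the mean of the WT libraries on the log2(value + 1) scale (horizontal axis) for the 10 cytokine genes, with the blue bar spanning the WT libraries. Both knockout libraries lie to the right of the bar for Ifng, Il4, Il21 and Il3, and Csf2 lies at -1.94 in replicate 1 and 0.39 in replicate 2.

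Il4 and Il21 had the smallest p-values among the tested cytokine genes. Il4 encodes interleukin 4, which drives type 2 helper responses and class switching in B cells, and Il21 encodes interleukin 21, a product of follicular helper T cells that acts on B cells in germinal centres. Their promoter windows are shown because of those p-values, beside those of Ifng and Il17a, for which Helios KO replicate 2 was more than 2-fold above every other library. Each window runs from 250 bases before to 50 bases after the annotated start site (RefSeq, GRCm38.p6, the same assembly as mm10). Capitals mark matches on either strand to the NFAT core GGAAA, the AP-1 site TGANTCA and the TATA box TATAAA.
Il4, chr11:53618616-53618915, minus strand: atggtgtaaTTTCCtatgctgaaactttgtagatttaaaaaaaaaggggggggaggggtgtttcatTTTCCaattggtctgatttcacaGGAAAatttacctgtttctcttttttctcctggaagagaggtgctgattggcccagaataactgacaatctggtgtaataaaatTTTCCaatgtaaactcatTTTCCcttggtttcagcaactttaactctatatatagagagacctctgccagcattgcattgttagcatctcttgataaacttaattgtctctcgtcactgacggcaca
Il21, chr3:37232587-37232886, minus strand: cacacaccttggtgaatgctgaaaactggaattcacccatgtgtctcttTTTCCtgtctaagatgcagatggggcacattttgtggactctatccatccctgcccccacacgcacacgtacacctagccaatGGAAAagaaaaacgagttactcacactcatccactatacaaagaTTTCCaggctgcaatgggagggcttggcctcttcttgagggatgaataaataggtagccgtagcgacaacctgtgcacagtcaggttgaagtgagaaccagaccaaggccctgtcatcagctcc
Ifng, chr10:118440796-118441095, plus strand: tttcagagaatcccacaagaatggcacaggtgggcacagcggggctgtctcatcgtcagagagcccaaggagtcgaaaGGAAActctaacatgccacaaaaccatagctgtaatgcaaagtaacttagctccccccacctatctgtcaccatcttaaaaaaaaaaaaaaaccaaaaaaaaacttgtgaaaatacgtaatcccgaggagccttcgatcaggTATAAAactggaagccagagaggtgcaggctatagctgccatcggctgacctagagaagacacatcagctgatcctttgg
Il17a, chr1:20730655-20730954, plus strand: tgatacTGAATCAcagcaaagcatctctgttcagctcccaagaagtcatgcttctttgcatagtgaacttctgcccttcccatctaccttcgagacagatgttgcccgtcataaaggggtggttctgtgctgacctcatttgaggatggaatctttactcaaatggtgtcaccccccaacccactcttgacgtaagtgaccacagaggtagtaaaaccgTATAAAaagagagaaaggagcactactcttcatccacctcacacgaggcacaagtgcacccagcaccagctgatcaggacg
The Il4 window held 5 NFAT cores and the Il21 window 3, whereas the Ifng window held 1 and the Il17a window 0. At least 3 NFAT cores were found in 9.42% of 32851 promoter windows of the same length and at least 1 in 61.3%. Of the 11 windows of the 10 cytokine genes (Il4 has an alternative start), 10 held at least 1 core and 4 held at least 3, those of Il4 (the window shown), Il13, Il21 and Csf2. The window of the alternative Il4 start held 1 core. The Csf2 window (54249850 to 54250149) lay outside the gene span given below (54247271 to 54249667). A TATA box was present in 5 of the 11 windows, against 13.6% of all windows, and lay about 30 bases before the start of Ifng, Il2, Il13, Il17a and Areg, with a pair of overlapping matches in Il13. An AP-1 match was present in 1 window, that of Il17a, against 7.81% of all windows. These matches describe the letters of the windows only.

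Il4 (ENSMUSG00000000869, chromosome 11, 53602982 to 53618669, minus strand, mm10) was at 21.6 and 41.4 in the WT libraries and at 83.5 and 154 in Helios KO replicates 1 and 2. These values came from 13, 25, 41 and 88 reads. Both knockout libraries were thus above both WT libraries, although the Poisson interval of Helios KO replicate 1 (59.9 to 113) touched that of WT replicate 2 (26.8 to 61.1). The mean was 119 ± 49.9 in the knockout against 31.5 ± 13.97 in WT (SD, n = 2 each). The log2 fold change was 1.89 (SE 0.51), with an adjusted p of 1.00 in limma. The log2 fold change was 1.45 when Helios KO replicate 2 was left out (adjusted p of 0.484), while Helios KO replicate 2 on its own against WT gave 2.32 with an adjusted p of 0.0309.

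Il21 (ENSMUSG00000027718, chromosome 3, 37222759 to 37232636, minus strand) had WT values of 15.3 and 60.1 and knockout values of 89.8 and 152, from 38, 150, 182 and 358 reads. The WT libraries themselves differed 3.93-fold, more than the knockout libraries did (1.69-fold), and the interval of WT replicate 2 (50.9 to 70.5) lay below that of Helios KO replicate 1 (77.2 to 104). The log2 fold change was 1.90 (SE 0.73, adjusted p of 1.00 in limma). It was 0.95 without WT replicate 1 and 1.52 without Helios KO replicate 2. Among the 6 tested cytokine genes, the profiles of Il4 and Il21 over the 4 libraries were the most alike of any pair, with a Euclidean distance of 0.71 between centred log2(value + 1) profiles.

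Ifng and Il17a were high in Helios KO replicate 2. Ifng (ENSMUSG00000055170, chromosome 10, 118441046 to 118445892, plus strand), whose product activates macrophages, was at 99.6 and 119 in WT, 158 in Helios KO replicate 1 and 1196 in Helios KO replicate 2. Reads numbered 84, 101, 109 and 958. Helios KO replicate 2 was 7.55-fold above the next library, while Helios KO replicate 1 was 1.33-fold above the higher WT library, and their Poisson intervals (130 to 191 and 97.1 to 145) overlapped. The log2 fold change was 1.99 (SE 1.19, adjusted p of 1.00 in limma). It fell to 0.53 without Helios KO replicate 2 (adjusted p of 1.00), and without Helios KO replicate 1 it was 3.44 (adjusted p of 0.000178 with a lone knockout library).

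Il17a (ENSMUSG00000025929, chromosome 1, 20730905 to 20734496, plus strand) encodes interleukin 17A, which draws neutrophils to tissues through epithelial and stromal cells. It was at 49.0 in Helios KO replicate 2, from 58 reads, and at 0 in each of the other 3 libraries. Counts of 0 allow values of up to 2.41 and 2.40 in the WT libraries and 2.95 in Helios KO replicate 1 (3 reads each), so the value of Helios KO replicate 2 (Poisson interval 37.2 to 63.4) was at least 16.6-fold higher than those 3-read limits. Il17f, the related cytokine gene whose start site lies 59.7 kb away, followed the same order with 3.95 and 18.3 in WT, 1.61 in Helios KO replicate 1 and 147 in Helios KO replicate 2, and is named here after its values were seen. Il17a did not pass the filter on low values because a single library reached 10. Il17a, Ifng and Il3 were the 3 of the 10 cytokine genes for which Helios KO replicate 2 was at least 2-fold above each other library, as were 13.1% of all genes.

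Of the remaining type 2 cytokines, Il5 and Il13 were at the limit of detection. Il5 (ENSMUSG00000036117, chromosome 11, 53720794 to 53725106, plus strand), the growth factor of eosinophils, had 3 and 0 reads in WT and 4 and 0 reads in the knockout, values of 1.84, 0, 2.997 and 0. Il13 (ENSMUSG00000020383, chromosome 11, 53631324 to 53634702, minus strand), which acts on epithelium in type 2 responses, had 0 and 1 reads in WT and 0 and 1 in the knockout. No difference was detectable at this depth, and neither gene was tested. Il13 and Il4 are neighbours with start sites 16.0 kb apart, and the 88 reads of Il4 in Helios KO replicate 2 stood beside 1 read of Il13.

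Il2, Il3 and Csf2 encode growth factors of lymphoid and myeloid cells. Il2 (ENSMUSG00000027720, chromosome 3, 37120523 to 37125959, minus strand), the T cell growth factor that Tregs consume, had WT values of 32.9 and 40.1 and knockout values of 50.3 and 39.8, from 40, 49, 50 and 46 reads. It was the most even of the tested cytokine genes, the groups overlapped, and the log2 fold change was 0.29 (SE 0.41, adjusted p of 1.00 in limma). Its start site lies 107 kb from that of Il21. The span of Il2 overlaps the end of Adad1, named for that overlap, on the opposite strand, whose reads the preparation cannot separate, and Adad1 itself had WT values of 0 and 5.24 and knockout values of 0 and 6.93.

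Il3 (ENSMUSG00000018914, chromosome 11, 54265303 to 54267277, minus strand), which supports mast cells and basophils, had 0 and 1 reads in WT and 3 and 7 in the knockout, values of 0, 1.49, 5.49 and 11.01. The groups did not overlap, but each Poisson interval of the knockout libraries (1.13 to 16.1 and 4.43 to 22.7) overlapped that of WT replicate 2 (0.0377 to 8.29), and the gene did not pass the filter. Csf2 (ENSMUSG00000018916, chromosome 11, 54247271 to 54249667, minus strand) encodes GM-CSF, a factor for granulocytes and macrophages. It was at 16.5 and 11.7 in WT, 2.88 in Helios KO replicate 1 and 18.6 in Helios KO replicate 2, from 14, 10, 2 and 15 reads. The knockout libraries thus lay on either side of WT (log2 fold change -0.77, SE 0.99, adjusted p of 1.00 in limma), and the sign turned to 0.39 without Helios KO replicate 1.

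Areg (ENSMUSG00000029378, chromosome 5, 91139599 to 91148432, plus strand) encodes a ligand of the EGF receptor. It was at 44.9 and 50.8 in WT, at 40.8 in Helios KO replicate 1 and at 91.2 in Helios KO replicate 2, from 58, 66, 43 and 112 reads. Helios KO replicate 1 lay below both WT libraries and Helios KO replicate 2 above both, with a log2 fold change of 0.35 (SE 0.49, adjusted p of 1.00 in limma) that turned to -0.22 without Helios KO replicate 2. Of 8 listed EGF family ligands and release factors, 6 were in the table, 4 were tested and 0 passed. The 3 with the smallest p were Rhbdf2, a partner of the sheddase (log2 fold change 0.25, SE 0.23), Hbegf, a related ligand (0.29, SE 0.36), and Egf (0.24, SE 0.45).

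The member genes lie in 5 places of the genome. Il4, Il13, Il5, Csf2 and Il3 share a stretch of chromosome 11 in which the start sites of Il5, Csf2 and Il3 are 102, 631 and 649 kb from that of Il4. Within that stretch Il4 and Il3 lay higher in both knockout libraries, Il5 and Il13 were near 0, and Csf2 lay on both sides of WT. Named after its values were seen, Rad50, a DNA repair gene that also holds the locus control region of the type 2 cytokine genes in mouse, had WT values of 1896 and 2015 and knockout values of 1798 and 2055. Of 26 listed neighbours of the cytokine loci, 21 were in the table, 17 were tested and 0 passed, both knockout libraries lay above WT in 3 and below in 3 (12.5% above and 15.7% below over all tested genes), and their median log2 fold change was 0.09 against -0.00 over all tested genes. Farther along the stretch, Pdlim4 was at 50.8 and 36.0 in the WT libraries, 76.6 in Helios KO replicate 1 and 762 in Helios KO replicate 2, and is named here after its values were seen. The neighbours with the smallest p were Irf1, an interferon-inducible transcription factor (log2 fold change 0.21, SE 0.11), Slc22a5, a carnitine transporter (-0.38, SE 0.20), and Bbs12 near Il2 (0.44, SE 0.24).

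**Figure D3:**
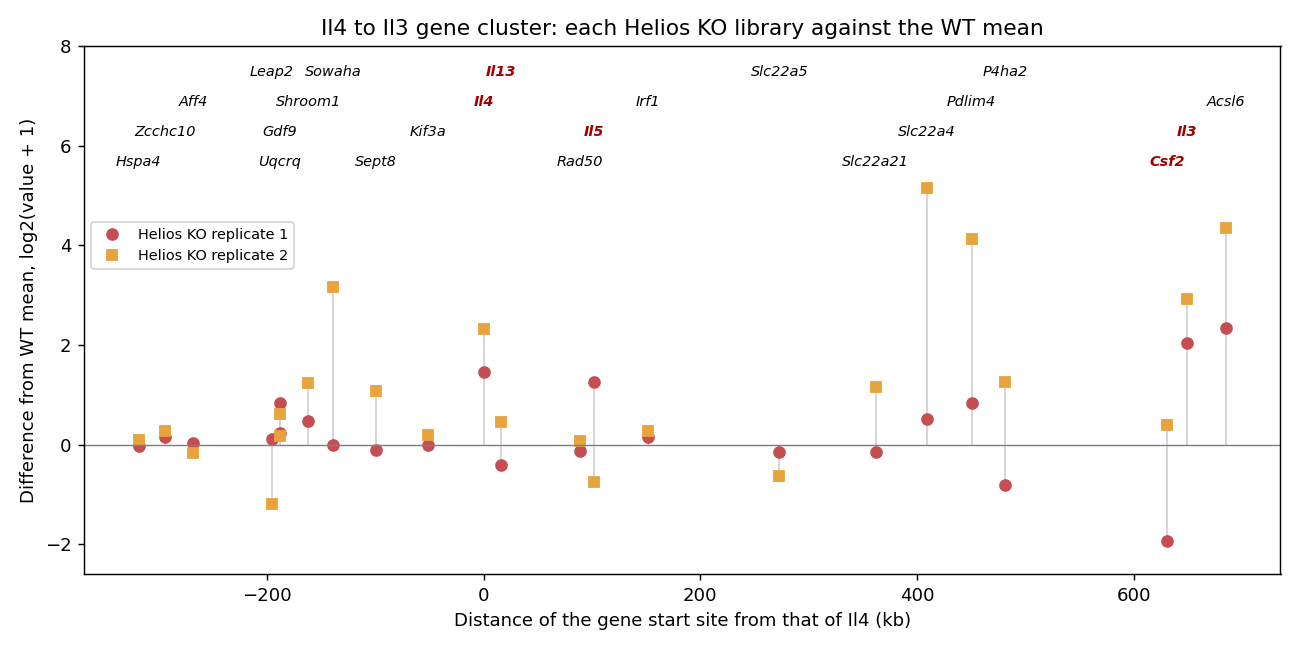
Difference of each Helios KO library from the WT mean on the log2(value + 1) scale (vertical axis) for genes of the Il4 to Il3 cluster, by distance of their start sites from that of Il4 in kb (horizontal axis). Cytokine genes studied here are named in bold red. Il4 and Il3 are above 0 in both libraries. Other genes are too, among them Acsl6 (2.34 and 4.34 in replicates 1 and 2) and Pdlim4 (0.83 and 4.12). Irf1, Kif3a and Rad50 stay near 0 in both. Apart from Irf1 and the cytokine genes, those named were picked after their values were seen.

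Transcripts of several cell types other than T cells were highest in Helios KO replicate 2. All 10 NK and cytotoxic markers were present, and their summed level was 4344 and 5563 in WT, 3823 in Helios KO replicate 1 and 31286 in Helios KO replicate 2. Among them Ncr1, which like the other single markers named here was picked after its values were seen, an NK cell receptor gene, was at 74.4 and 99.3 in WT, 27.3 in Helios KO replicate 1 and 1730 in Helios KO replicate 2. NK cells are a known source of interferon gamma. The 8 basophil and mast cell markers, from cells known to make interleukin 4, summed to 305 and 380 in WT, 172 in Helios KO replicate 1 and 2685 in Helios KO replicate 2, with Prss34 at 0 in both WT libraries and Mcpt8 at 0 in WT replicate 1. Sums of the 7 neutrophil markers were 130 and 33.7 in WT, 68.8 in Helios KO replicate 1 and 35288 in Helios KO replicate 2, with Elane at 0 in each library but the last. The 4 eosinophil markers ran from 91.6 to 149 in those 3 libraries and reached 1772 in Helios KO replicate 2, with Epx at 0 in the 3.

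The other marker lists split in the same way, with some exceptions. The 7 macrophage and monocyte markers in the table summed to 1296 and 2295 in WT and to 852 and 50120 in the knockout, the 6 dendritic cell markers to 131 and 157 against 160 and 4337, the 3 erythroid markers to 521 and 117 against 223 and 7510, and the 4 platelet markers to 189 and 170 against 129 and 2153. The 5 ILC2 markers (5706 and 6736 in WT, 6992 and 7052 in the knockout), the 5 B cell markers (1348 and 1075, 746 and 1754), the CD8 pair (725 and 676, 762 and 765) and the 6 T cell markers (238423 and 237401, 254474 and 205896) stayed within 2-fold of WT as sums. Single markers differed from these sums in Helios KO replicate 2. There 3 B cell, 2 ILC2, 1 CD8 and 0 T cell markers were at least 2-fold above each other library (13.1% of all genes). Cd8a, picked after its values were seen, was at 20.2 and 17.6 in WT against 19.4 and 69.2 in the knockout. Cd8b1, at 658 to 742, carried the CD8 sum. Of 5 genes listed for gamma delta T cells, only Blk was in the table, at 44.0 and 20.3 in WT against 19.5 and 205 in the knockout. Blk is not particular to those cells, so no summed level is given and their presence could not be read from these data.

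The part of these cells in the cytokine values of Helios KO replicate 2 was not tested, and in such bulk libraries a higher share of a cell type cannot be told apart from more RNA per cell. In Helios KO replicate 1 the summed NK and cytotoxic, basophil and mast cell, macrophage and monocyte, B cell and platelet markers were below both WT libraries. The dendritic cell, ILC2, CD8 and T cell sums of that library were above both, and the eosinophil, neutrophil and erythroid sums lay between them. Within the B cell list Cd79b carried the lower sum (1081 and 963 in WT, 539 in Helios KO replicate 1), whereas Pax5 was above both WT libraries (3.73 and 2.79, 10.3 in Helios KO replicate 1). In the basophil and mast cell list Kit carried the lower sum (264 and 324 in WT, 141 in Helios KO replicate 1). Cpa3 and Fcer1a were also below both WT libraries there. Cma1 (8 reads), Mcpt8 and Prss34 (1 read each) were above both, and Ms4a2 and Gata2 lay between them. These basophil and mast cell markers were named after their values were seen.

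**Figure D4:**
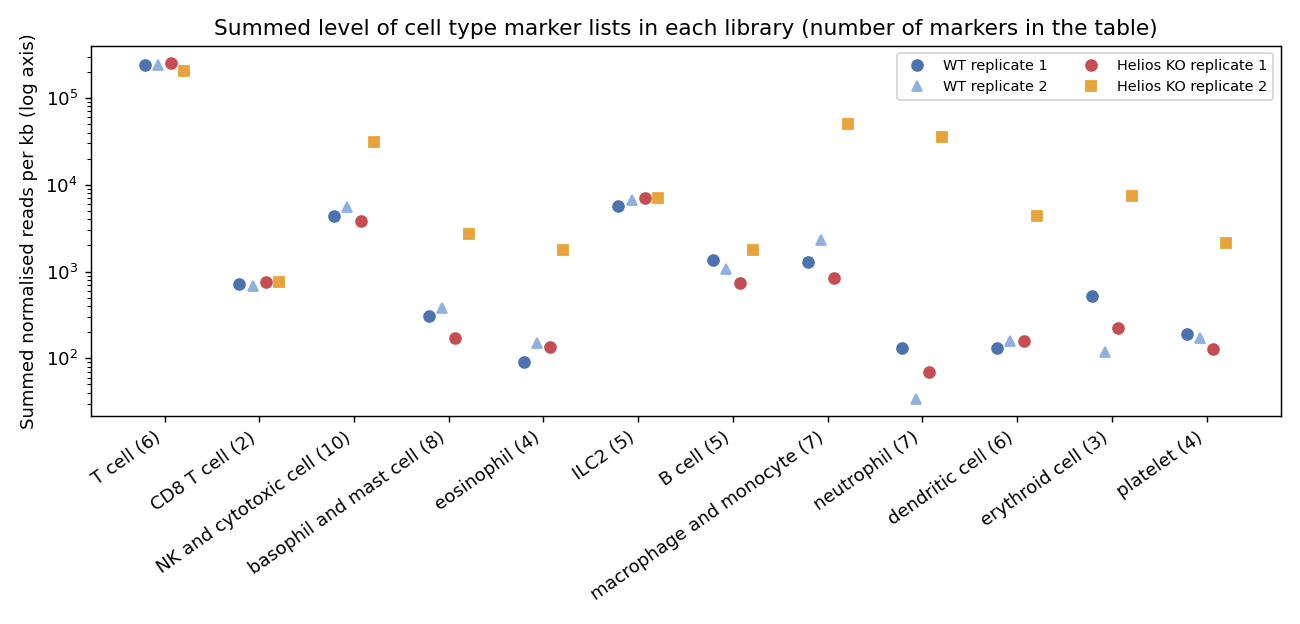
Summed normalised reads per kb (vertical log axis) of marker lists of other cell types and of T cells in each library, with the number of markers in the table in brackets. Helios KO replicate 2 is above the other libraries for the NK, basophil, eosinophil, macrophage, neutrophil, dendritic, erythroid and platelet lists, while the T cell and ILC2 lists lie close together.

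Other cytokine and chemokine genes of T cells were taken from a list chosen with earlier results of these data known. They included genes raised in a single knockout library and genes with like values in both. Of 29 listed genes 25 were in the table and 22 were tested. In 8 of them both knockout libraries lay above WT and in 0 below, where 12.5% and 15.7% of all tested genes did, 0 passed over all genes, and the median log2 fold change was 0.44 (0.08 in Helios KO replicate 1 and 0.37 in Helios KO replicate 2). The 3 with the smallest p had close values in the knockout libraries. Csf1, the growth factor of macrophages, had WT values of 1202 and 1284 and knockout values of 2145 and 1983 (log2 fold change 0.73, SE 0.11, adjusted p of 0.526 in limma). Il10, an anti-inflammatory cytokine gene, had WT values of 110 and 182 and knockout values of 370 and 347. Ccl1, a chemokine gene, was at 123 and 98.0 against 351 and 217.

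Ccl3 and Ccl4, chemokine genes of activated lymphocytes and myeloid cells, were named after their values were seen. Ccl3 was at 18.4 and 18.3 in WT, 6.01 in Helios KO replicate 1 and 2414 in Helios KO replicate 2. Ccl4 was at 54.1 and 82.2 in WT, 54.1 in Helios KO replicate 1 and 4049 in Helios KO replicate 2. Tbx21, which encodes the Ifng regulator T-bet, was at 452 and 407 in WT, 478 in Helios KO replicate 1 and 1605 in Helios KO replicate 2.

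Of 20 listed regulators of cytokine genes 19 were in the table, 18 were tested, both knockout libraries lay above WT in 3 and below in 3 (12.5% above and 15.7% below over all tested genes), 0 passed, and the median log2 fold change was -0.04. Rora, which encodes a nuclear receptor of the type 17 programme, had WT values of 3205 and 3691 and knockout values of 1805 and 2376 (log2 fold change -0.73, SE 0.16). Batf, a partner of AP-1 that Il4 and Il21 need in T cells, was at 7120 and 9085 against 9819 and 10469 (0.33, SE 0.14). Gata3 (18363 to 21671), Maf (412 to 545) and Nfatc1 (4828 to 5098), named after their values were seen, had narrow ranges over the 4 libraries.

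Receptor genes for the same cytokines spanned a wide range of levels, from Il2ra, Ifngr1, Il4ra and Il21r, at 14294 or more in each library, to Il13ra2, at 0 in 3 libraries. Egfr, the receptor of amphiregulin, was at 31.5 and 22.2 in the WT libraries, 53.1 in Helios KO replicate 1 and 24.9 in Helios KO replicate 2, below Areg in all but Helios KO replicate 1. Of 17 listed receptor genes 14 were in the table and 12 were tested, both knockout libraries lay above WT in 1 and below in 0 (12.5% above and 15.7% below over all tested genes), 0 passed, and the median log2 fold change was 0.05. Csf2ra, the GM-CSF receptor chain, was at 288 and 376 in WT, 411 in Helios KO replicate 1 and 1415 in Helios KO replicate 2. Il13ra1, a chain of the interleukin 13 receptor, was at 32.7 and 58.0 in WT, 44.4 in Helios KO replicate 1 and 336 in Helios KO replicate 2. Both were highest in Helios KO replicate 2. Il2ra had WT values of 39462 and 39620 and knockout values of 40457 and 26759 (log2 fold change -0.27, SE 0.21). Named after their values were seen, Il4ra (15905 to 18604) and Il21r (14294 to 15827) stayed within a narrow range in all libraries.

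Most of the 10 genes have messages rich in a decay element, a feature the choice by name did not use. AUUUA elements (ATTTA in DNA letters) in the 3′ untranslated region mark messages for rapid decay by proteins such as tristetraprolin, encoded by Zfp36. The median density over the cytokine genes was 10.4 elements per kb, against 1.33 over 14721 genes with such a region of at least 100 bases (longest coding transcript, GENCODE M21). At least 8 per kb were found in 7 of the 10 genes and in 1.54% of all these genes. The stretch of 30 bases richest in the element is shown for 5 genes, with the elements in capitals (GRCm38 coordinates).
Csf2, chr11:54247329-54247358, minus strand: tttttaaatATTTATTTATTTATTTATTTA
Areg, chr5:91148369-91148398, plus strand: ataATTTATTTAatATTTAagtgttATTTA
Il2, chr3:37121040-37121069, minus strand: ctATTTATTTAaatATTTAactttaATTTA
Il17a, chr1:20734203-20734232, plus strand: ATTTAtatgagctATTTAtgaatctATTTA
Ifng, chr10:118445330-118445359, plus strand: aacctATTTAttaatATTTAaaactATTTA
Csf2 had 9 elements in 317 bases (28.4 per kb), followed by Il4 (19.2 per kb, from 2 elements in 104 bases), Areg (15.8), Il2 (12.0), Il17a (10.99), Il3 (9.90, from 1 element in 101 bases) and Ifng (9.51). Il5 (6.41), Il13 (4.05) and Il21 (3.49) had fewer. Genes with dense elements were found among the even ones (Il2) and among those high in Helios KO replicate 2 (Ifng, Il17a). They were also found among those above WT in both knockout libraries (Il4, Il3 and Ifng) and among those on both sides of WT (Csf2, Areg).

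Of 7 listed decay factors of cytokine messages, 6 were in the table and tested, both knockout libraries lay above WT in 1 and below in 1 (12.5% above and 15.7% below over all tested genes), and 0 passed. Zfp36l2, a relative of tristetraprolin, had the smallest p, at 5841 and 3601 in WT against 7103 and 6374 in the knockout, which is a log2 fold change of 0.55 (SE 0.26). Zc3h12d (-0.21, SE 0.11) and Zc3h12a, which encodes the endonuclease Regnase-1 (0.16, SE 0.15), came next. Zfp36 itself, named after its values were seen, was at 2112 and 2115 in WT, 1865 in Helios KO replicate 1 and 6590 in Helios KO replicate 2, the library with the highest Ifng.

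Genes whose profiles over the 4 libraries were closest to each tested cytokine gene were found by Euclidean distance between centred log2(value + 1) profiles among 11196 protein-coding genes. Closest to Ifng were Tmcc2 (distance 0.34) and Rbpms (0.39), both highest in Helios KO replicate 2 (209 and 657). Closest to Il4 were Dpf3 (0.35) and Papss2 (0.59), and to Il21 Tmem150a (0.62) and Acy3 (0.67). For these 3 cytokine genes no other gene lay within a distance of 0.25, whereas 191 genes did for Il2, led by Mrpl52 (0.03) and Kctd21 (0.06), and 61 did for Areg, led by Ltbp1 (0.04) and Hk2 (0.07). Csf2 was closest to 5330417C22Rik (0.13) and Hif3a (0.14), the only genes within 0.25. With 4 libraries, a small distance describes these libraries and no more.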

How the data were processed

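RNA-seq had been done on splenic CD4+CD25+ cells of 2 WT and 2 Helios KO samples, grouped by their titles. Per the labels' protocols, 5 ng of RNA was turned into cDNA (10 PCR cycles) and tagmented with Tn5 (12 cycles), a preparation that does not mark strand. Per the submitters' processing notes, the build was mm10 and the tools included bcl2fastq 2.17.1.14; which aligner and counter were used is not given in the sources used here. Signal values had been normalised by the authors and put per kb of median transcript length, per the file headers.

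Reads were recovered from the values with GENCODE M21 transcript lengths. Of 58026 nonzero values 97.2% came out whole within 0.01 read, and all values of the 10 cytokine genes did. Since the values are no counts, limma 3.58.1 (R 4.3.3) was fitted to log2(value + 1) over the 11571 genes that reached 10 in 2 or more libraries, with genotype as the only term, trended and robust variance moderation, two-sided tests and Benjamini-Hochberg adjustment over all tested genes. Fold changes are on that log2 scale, which understates changes of low genes. The fit was tested on simulated data. Alternatives changed scaling, filter, pseudocount, test, replicate block and the libraries used. The cytokine genes and all lists were chosen with earlier results of these data known. Named genes are the 10 cytokine genes, the 3 with the smallest p in each pathway list, and the 2 closest profiles to each tested cytokine gene, and most genes named otherwise are marked. Those without a mark, such as Tbx21, Egfr, Cd79b and Pax5, were not picked by this rule either. A gene that this rule names among the regulators is not reported here. Poisson intervals and the limit of 3 reads for a count of 0 were computed from recovered reads. Promoter sequences are from RefSeq (GRCm38.p6), where all 10 genes matched.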

Additional observations from a re-analysis of the deposited data

How the results depend on the processing

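The 2 against 2 design and low read numbers limit these results, and Il3, Il5 and Il13 rest on at most 7 reads in any library. In limma, 0 of all genes and 0 of the tested cytokine genes (6, but 10 with no filter and 5 with a value of at least 10 in all 4 libraries) were called under both other scalings, no filter, a value of at least 10 in all 4 libraries, pseudocounts of 0.1 and 10, limma-voom and the replicate block. Leaving out a library gave 0 to 741 called genes and 0 to 2 called cytokine genes, the highest (Ifng and Il4) without Helios KO replicate 1, with the lone knockout library assumed to vary like WT. Without Helios KO replicate 2, 32 genes and 0 cytokine genes were called. Chosen after seeing the data, leaving out each library gave 4 to 8 cytokine genes higher in the knockout libraries left, and both scalings gave 4. The count was 8 without Helios KO replicate 1 (39.4% of all genes) and 6 when replicate 2 was omitted (26.7% of all genes). Shares over all genes were not computed for the other settings of this count. The log2 fold change of Csf2 reversed to 0.39 without Helios KO replicate 1 (-1.94 to 0.39 over libraries left out), and that of Areg to -0.22 without Helios KO replicate 2 (-0.22 to 0.92). Over libraries left out, Ifng ran from 0.53 to 3.44, Il21 from 0.95 to 2.85, Il4 from 1.43 to 2.34 and Il2 from 0.13 to 0.46. WT and knockout libraries of the same replicate number share only that number in the labels. Over the tested genes, the replicate differences in WT and in the knockout correlated at 0.106, which cannot settle whether the libraries were paired. With the replicate block 335 genes, 2 of them cytokine genes, had an unadjusted p under 0.05 in limma. Other scalings moved the median of all genes by at most 0.00398 (log2).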
